A study of Mus musculus with 8 samples.

Results

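Butyrophilin-like genes encode immunoglobulin-domain proteins of the cell surface, relatives of the B7 co-stimulatory family. In the gut they are made by epithelial cells, and Btnl1 and Btnl6 act as a pair at the cell surface that selects and maintains gamma-delta intraepithelial lymphocytes, the T cells that live between epithelial cells. Btnl4 can also pair with Btnl1, and Btnl2 is known as an inhibitor of T cell activation. The genes described here are Btnl1, Btnl2, Btnl4 and Btnl6, 4 of the 24013 symbols in the expression table. They were chosen by name and because their levels were higher in CD24- cells, so that difference is given as a description and is not tested. All 4 were among the 11190 genes that passed the filter of at least 1 FPKM in at least 2 libraries (FPKM, the fragment number of a gene relative to its transcript length and to all mapped fragments).

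RNA was sequenced from sorted intestinal epithelial cells of Lyz1CreER; R26R-tdT mice, 8 to 14 weeks old, on a mixed C57/BL6 and 129 background. All mice had received 1 dose of 10 mg tamoxifen, after which cells with Lyz1 promoter activity, and their descendants, carry the fluorescent protein tdTomato. Viable tdT+ cells that carried EpCAM and lacked CD45 were split by CD24, a surface protein of Paneth cells, the antimicrobial secretory cells of the crypt base. The 3 groups were tdT+CD24+ cells of non-irradiated mice (n = 2), tdT+CD24+ cells taken 5 days after irradiation (n = 3), and tdT+CD24- cells, the derivatives, taken 5 days after irradiation (n = 3). Non-irradiated CD24- cells were not analysed here, so in the derivatives the gate and the irradiation cannot be told apart when they are set against non-irradiated cells. Nothing in the labels ties a replicate to its own mouse, and the p-values therefore cover the variation among these libraries, which may be technical. The gates matched their markers: 34 measured Paneth cell genes held 57.2% to 65.4% of all FPKM in the CD24+ libraries and 1.47% to 9.94% in the CD24- libraries. Non-irradiated replicate 1 was unlike the rest: its median-of-ratios scaling factor was 0.528, while the other CD24+ libraries had 0.859 to 0.993.

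In the RefSeq order of assembly GRCm38.p6 the 4 genes lie on chromosome 17 beside the MHC class II genes, in the order Btnl2, Btnl1, BC051142, Btnl4, Btnl5-ps, Btnl6, Btnl7-ps, with the class II gene H2-Eb1 before Btnl2. The promoter windows below, from RefSeq, run from 250 bases before to 50 bases after an annotated start site. Those of Btnl2 (chr17:34354572-34354871, GRCm38.p6, plus strand) and Btnl1 (chr17:34376882-34377181, GRCm38.p6, plus strand) are shown because these genes had the most alike profiles of any pair of members. Capitals mark matches to motif letters, searched on both strands.
Btnl2: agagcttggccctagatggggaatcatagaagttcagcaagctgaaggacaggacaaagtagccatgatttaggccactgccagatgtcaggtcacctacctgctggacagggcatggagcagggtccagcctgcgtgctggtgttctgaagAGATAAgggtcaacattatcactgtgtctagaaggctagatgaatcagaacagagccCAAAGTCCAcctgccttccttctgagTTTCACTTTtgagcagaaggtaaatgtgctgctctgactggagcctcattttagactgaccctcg
Btnl1: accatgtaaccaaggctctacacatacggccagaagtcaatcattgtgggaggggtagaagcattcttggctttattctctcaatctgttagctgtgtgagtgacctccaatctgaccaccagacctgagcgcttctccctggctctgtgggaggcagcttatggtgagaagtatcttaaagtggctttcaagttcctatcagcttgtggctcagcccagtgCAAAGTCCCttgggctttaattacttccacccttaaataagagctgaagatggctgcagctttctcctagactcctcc

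The Btnl2 window held the HNF4 letters CAAAGTCCA at -41 from the start site, the GATA letters AGATAA at -98 and the interferon response letters TTTCNNTTT at -15, and the matches do not overlap. Of 32851 RefSeq windows of this length, 0.475% held the HNF4 letters, 11.2% the GATA letters and 10.6% the interferon response letters. The Btnl1 window held no exact match. Its capitals mark CAAAGTCCC at -28, which matches 8 of the 9 HNF4 letters, and 8.47% of all windows held a stretch with at most 1 mismatch. The allowance of a mismatch was chosen after the windows had been seen. The CDX letters TTTATNG, held by 10.9% of all windows, were not in the windows of these 4 genes. A match describes letters only and shows no binding.

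The windows of Btnl4 and Btnl6 are shown because they are much alike. The Btnl4 window (chr17:34475888-34476187, GRCm38.p6, minus strand) and the Btnl6 window (chr17:34517303-34517602, GRCm38.p6, minus strand) were identical at 275 of 302 aligned positions (91.1%), against 47.2% to 52.1% for every other pair of the 4. Their annotated start sites lie 1491 and 1424 bases inside the outer end of the RefSeq gene, so these windows may not be where transcription starts. Neither held a match to the 4 motifs. Capitals mark bases that differ between them or face a gap.
Btnl4: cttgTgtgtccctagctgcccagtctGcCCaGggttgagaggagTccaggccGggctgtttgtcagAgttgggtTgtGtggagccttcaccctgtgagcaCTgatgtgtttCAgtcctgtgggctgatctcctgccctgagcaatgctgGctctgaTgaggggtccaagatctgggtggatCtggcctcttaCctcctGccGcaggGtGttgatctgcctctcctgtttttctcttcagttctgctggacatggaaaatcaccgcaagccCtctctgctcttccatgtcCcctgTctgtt
Btnl6: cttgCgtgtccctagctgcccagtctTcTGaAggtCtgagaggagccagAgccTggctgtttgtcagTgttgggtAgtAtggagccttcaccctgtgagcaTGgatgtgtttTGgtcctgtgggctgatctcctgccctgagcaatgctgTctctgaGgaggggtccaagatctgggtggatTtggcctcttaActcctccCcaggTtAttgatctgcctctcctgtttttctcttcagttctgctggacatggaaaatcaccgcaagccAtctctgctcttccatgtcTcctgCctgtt

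In GENCODE transcripts of the same build, 13.8% of the stretches of 50 bases in Btnl4 and 6.58% of those in Btnl6 also occurred in another gene of the cluster, mostly the transcribed pseudogene Btnl5-ps and the pseudogene Btnl7-ps. Between Btnl4 and Btnl6 themselves the shared stretches were 1.16% of those in Btnl4 and 1.59% of those in Btnl6. At 100 bases the shares with any other gene of the cluster were 3.16% and 0.0605%, and Btnl4 and Btnl6 shared none with each other. Btnl1 and Btnl2 shared none at either length. The values of Btnl4, Btnl6 and Btnl5-ps are uncertain for this reason. The shares count exact matches only, and the annotation behind the FPKM is not given, so they do not measure the size of that uncertainty.

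Btnl1, the partner of Btnl6 and Btnl4, stood at 4.91 and 16.4 FPKM in non-irradiated CD24+ replicates 1 and 2. In irradiated CD24+ replicates 1, 2 and 3 it stood at 12.5, 9.62 and 9.03. In irradiated CD24- replicates 1, 2 and 3 it stood at 146, 162 and 195. Every CD24- library was above every CD24+ library, a difference for which the genes were chosen. The 3 irradiated CD24+ values lay between the 2 non-irradiated ones. The group means were 10.7 ± 8.16 (SD, n = 2), 10.4 ± 1.85 (SD, n = 3) and 168 ± 25.2 (SD, n = 3). The mean of irradiated CD24- cells was 16.2 times that of irradiated CD24+ cells and 15.7 times that of non-irradiated CD24+ cells. In these bulk libraries fewer expressing cells and less RNA per cell cannot be told apart.

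Btnl6, the pairing partner of Btnl1, stood at 4.42 and 16.8 FPKM in non-irradiated CD24+ cells, at 12.0, 9.99 and 6.79 in irradiated CD24+ cells, and at 143, 140 and 132 in irradiated CD24- cells, in replicate order. The CD24- libraries again lay above all others, and they spread by a ratio of 1.08 from lowest to highest, against 1.34 for Btnl1. The CD24- mean of 138 ± 5.64 (SD, n = 3) was 14.4 times the irradiated CD24+ mean of 9.58 ± 2.61 (SD, n = 3) and 13.0 times the non-irradiated mean of 10.6 ± 8.75 (SD, n = 2).

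Btnl4, which can take the place of Btnl6 beside Btnl1, stood at 4.58 and 9.11 FPKM in non-irradiated CD24+ cells, at 8.11, 8.46 and 6.45 in irradiated CD24+ cells, and at 46.8, 49.2 and 44.7 in irradiated CD24- cells. It differed least between the gates of the 4 genes: its CD24- mean of 46.9 ± 2.23 (SD, n = 3) was 6.12 times the irradiated CD24+ mean of 7.67 ± 1.07 (SD, n = 3). Btnl2, the T cell inhibitor, stood at 1.12 and 5.24 FPKM in non-irradiated CD24+ cells, at 3.34, 2.88 and 2.38 in irradiated CD24+ cells, and at 45.9, 51.4 and 58.6 in irradiated CD24- cells. It had the lowest level of the 4 in every CD24+ library and, at 18.1, the largest ratio of the CD24- mean (52.0 ± 6.37, SD, n = 3) to the irradiated CD24+ mean (2.87 ± 0.479, SD, n = 3).

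**Figure D1:**
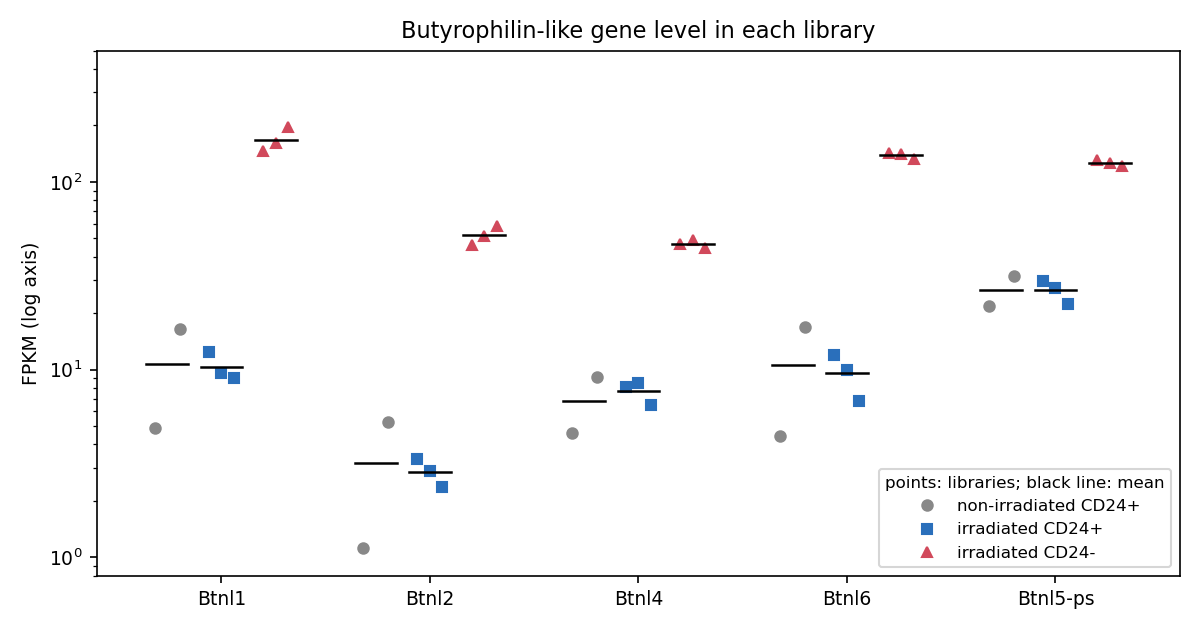
FPKM on a log axis of Btnl1, Btnl2, Btnl4, Btnl6 and the pseudogene Btnl5-ps, with a point for each library, colour and shape for the 3 groups and a black line at the group mean. The CD24- libraries lie above all CD24+ libraries for each gene, while the non-irradiated and irradiated CD24+ libraries overlap.

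On the log2(FPKM + 1) scale the differences between irradiated CD24- and irradiated CD24+ cells were 3.89 for Btnl1, 3.78 for Btnl2, 3.75 for Btnl6 and 2.47 for Btnl4. The median of all tested genes differed by 0.51 in the same direction, and relative to it the 4 genes stood at 3.38, 3.27, 3.24 and 1.96. Between these gates limma called 48.6% of the 11190 tested genes higher and 7.27% lower in CD24- cells, 55.9% in all (Benjamini-Hochberg adjusted p under 0.05). Larger positive differences than that of Btnl1 were found for 103 tested genes, and larger ones than those of Btnl2, Btnl6 and Btnl4 for 120, 126 and 504. The size depended on the scaling: with median-of-ratios scaling the differences were 3.33, 3.24, 3.19 and 1.93 in the order Btnl1, Btnl2, Btnl6, Btnl4, and after rescaling each library to the same sum they were 5.11, 4.90, 4.96 and 3.67.

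The levels of the 4 genes can be set in order because FPKM is per length. Btnl1 and Btnl6 had the highest means in both irradiated gates, while Btnl2 and Btnl4 were apart only in CD24+ cells. CD24- replicate 1 had the same order of the 4 genes as irradiated CD24+ replicate 1. In CD24- cells Btnl1 was highest and Btnl6 followed, with the lowest Btnl1 value (146) just above the highest Btnl6 value (143). Btnl2 and Btnl4 were lower, and their ranges of 45.9 to 58.6 and 44.7 to 49.2 FPKM overlapped. In irradiated CD24+ cells the range of Btnl6 (6.79 to 12.0 FPKM) overlapped those of Btnl1 (9.03 to 12.5) and Btnl4 (6.45 to 8.46), Btnl4 lay below Btnl1 without overlap, and Btnl2 (2.38 to 3.34) was below all of them.

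Btnl4 made up less of the 4-gene sum in CD24- cells. Its values are uncertain because of the stretches it shares with Btnl5-ps, and the part of these in the shares was not tested. It contributed 19.1% to 30.5% of the summed FPKM of the 4 genes in the CD24+ libraries and 10.4% to 12.3% in the CD24- libraries, without overlap. Btnl1 contributed 31.1% to 36.6% and 38.3% to 45.4%, and Btnl2 7.43% to 11.0% and 12.0% to 13.6%. Btnl6 contributed 27.5% to 35.3% in CD24+ and 30.7% to 37.5% in CD24- libraries, which overlap. The ratio of Btnl6 to Btnl1 within a library, of interest because the proteins pair, was 0.752 to 1.04 in CD24+ and 0.676 to 0.979 in CD24- libraries, whereas Btnl4 to Btnl1 was 0.554 to 0.933 and 0.229 to 0.321.

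**Figure D2:**
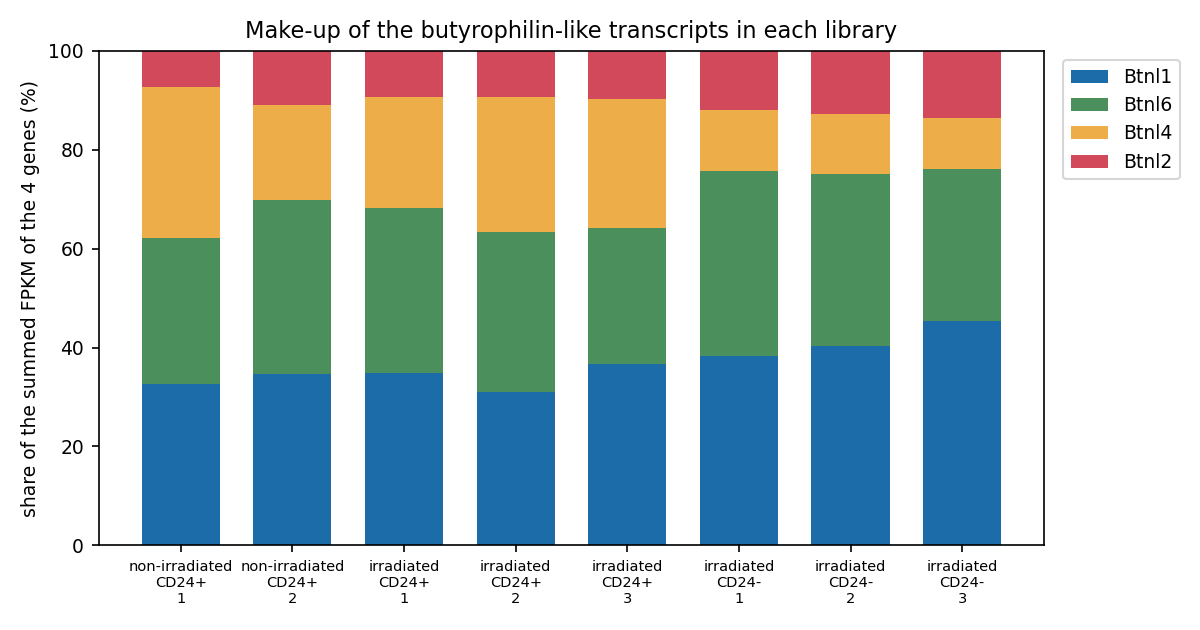
Share of the summed FPKM of Btnl1, Btnl6, Btnl4 and Btnl2 (percent, stacked bars, 1 bar for each of the 8 libraries). The Btnl4 segment spans 19.1% to 30.5% in the 5 CD24+ libraries and 10.4% to 12.3% in the 3 CD24- libraries.

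The comparison of irradiated with non-irradiated CD24+ cells, which the choice of the genes did not use, asks whether their levels in the Paneth cell gate differed 5 days after irradiation. They did not pass the test: limma called 0 of the 4, as it called 0% of the 11190 tested genes, with 1424 of all genes and 0 of the 4 at an unadjusted p under 0.05. The log2 differences, irradiated minus non-irradiated, were 0.15 ± 0.38 (SE) for Btnl1, 0.083 ± 0.37 for Btnl2, 0.20 ± 0.26 for Btnl4 and 0.076 ± 0.41 for Btnl6, with adjusted p from limma of 0.773, 0.872, 0.582 and 0.897. Against the median of all genes, which was 0.32, each lay lower, at -0.17, -0.24, -0.12 and -0.25. The direction rested on the 2 non-irradiated libraries, which differed from each other 3.35-fold for Btnl1, 4.70-fold for Btnl2, 1.99-fold for Btnl4 and 3.80-fold for Btnl6. Without non-irradiated replicate 1 the differences were -0.63, -0.70, -0.23 and -0.78 for Btnl1, Btnl2, Btnl4 and Btnl6 (limma adjusted p of at least 0.651). Without non-irradiated replicate 2 they were 0.93, 0.86, 0.63 and 0.93, and all 4 were called higher (limma adjusted p of 0.0213 to 0.0297), as were 46.4% of all tested genes in that fit. With median-of-ratios scaling they were -0.26, -0.21, -0.21 and -0.33. With a block for replicate number limma called 92 of all tested genes and 0 of the 4 (adjusted p of 0.503 to 0.846). This block also ties non-irradiated to irradiated libraries by number, a pairing that nothing in the labels gives.

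Enterocyte markers, genes of the absorptive cells of the gut, differed in the same direction as the members between the 2 non-irradiated CD24+ libraries but not among the 3 irradiated ones. Non-irradiated replicate 2 exceeded replicate 1 by a median of 4.06-fold over 30 enterocyte genes (range 1.19 to 7.05). As a share of their mean in CD24- cells, the median enterocyte marker stood at 2.98% and 12.3% in non-irradiated CD24+ replicates 1 and 2 and at 4.54%, 3.84% and 6.22% in irradiated CD24+ replicates 1, 2 and 3. The corresponding shares were 2.93%, 9.80%, 7.44%, 5.73% and 5.38% for Btnl1, 3.19%, 12.1%, 8.65%, 7.22% and 4.91% for Btnl6, and 2.15%, 10.1%, 6.43%, 5.54% and 4.59% for Btnl2. In irradiated replicates 1 and 2 these lay above the enterocyte median, and in irradiated replicate 3, the irradiated library with the highest enterocyte median, all 3 genes had their lowest irradiated value and lay below it. Btnl4 stood higher, at 9.77%, 19.4%, 17.3%, 18.0% and 13.8%. The summed FPKM of the 30 enterocyte genes was 782 and 3354 in non-irradiated CD24+ libraries, 1257 to 1912 in irradiated CD24+ libraries and 23405 to 49201 in CD24- libraries, with none of the 30 at 0 in any library. Their part in the levels of the members was not tested.

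**Figure D3:**
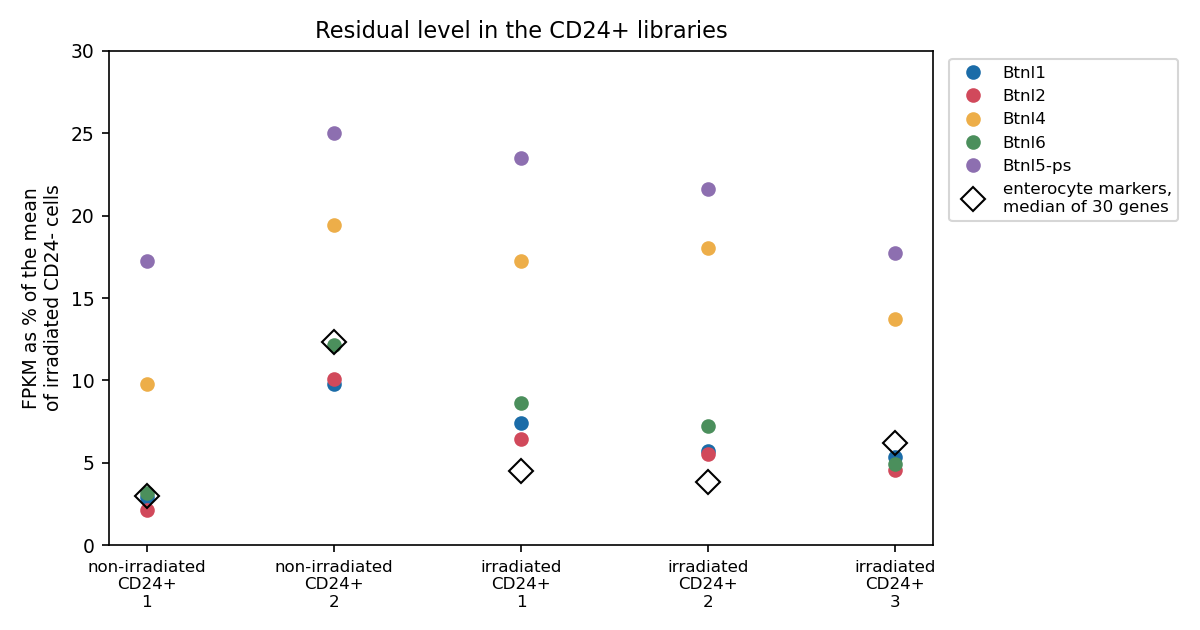
FPKM in each of the 5 CD24+ libraries as a percent of the mean of the 3 irradiated CD24- libraries, for the 4 genes, Btnl5-ps and the median of 30 enterocyte markers (open diamonds). Btnl4 and Btnl5-ps lie above the enterocyte median in every library, and non-irradiated replicate 2 is the highest library for each gene plotted.

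The members were also set against Vil1, a brush border gene with 65.0 and 150 FPKM in non-irradiated CD24+, 99.1 to 108 in irradiated CD24+ and 617 to 699 in CD24- libraries. The ratio of Btnl1 to Vil1 was 0.0756 to 0.126 in the 5 CD24+ libraries and 0.237 to 0.280 in the CD24- libraries. Btnl6 (0.0655 to 0.121 and 0.189 to 0.232) and Btnl2 (0.0172 to 0.0350 and 0.0744 to 0.0839) likewise did not overlap between the gates. Btnl4 did, with 0.0607 to 0.0818 in CD24+ and 0.0640 to 0.0773 in CD24- libraries. This depended on the reference gene: relative to Epcam, the epithelial sort marker, none of the 4 overlapped. The members were chosen for higher levels in CD24- cells, where limma called 48.6% of all tested genes higher by FPKM. The share of all genes without overlap in these ratios was not computed. The ratio to Epcam was 0.0271 to 0.0404 in CD24+ and 0.0636 to 0.0750 in CD24- libraries for Btnl4, and 0.0346 to 0.0728 and 0.199 to 0.328 for Btnl1.

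Within the CD24- group the members varied little while some enterocyte genes varied much. The highest CD24- library exceeded the lowest by a ratio of 1.34 for Btnl1, 1.28 for Btnl2, 1.10 for Btnl4 and 1.08 for Btnl6, where the 30 enterocyte markers had a median ratio of 1.67 and a range of 1.11 to 21.4. Ada, an adenosine deaminase gene of the villus tip, stood at 215, 144 and 1593 FPKM in CD24- replicates 1, 2 and 3, and Slc28a2, a nucleoside transporter gene, at 22.6, 9.98 and 214. Both were chosen after their values were seen. In replicate 3, the library high in those genes, Btnl1 and Btnl2 had their highest and Btnl4 and Btnl6 their lowest CD24- values. Paneth markers held 9.94%, 2.67% and 1.47% of FPKM in CD24- replicates 1, 2 and 3.

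Profiles were compared over the 8 libraries by the root mean square difference of log2(FPKM + 1) after centring each gene on its mean, among 7825 genes with a group mean of at least 5 FPKM. A small value means a like profile in size and shape, and it reuses the values that chose the members. Btnl2 was the nearest but one gene to Btnl1 (0.091), behind Slc7a9 (0.087), an amino acid transporter subunit, and ahead of Erich4 (0.11). Btnl2 itself was nearest to Slc3a1 (0.067), another amino acid transporter subunit, followed by Btnl1 and by Cda (0.10), a cytidine deaminase. Btnl6 was nearest to Cox7a1 (0.14), a cytochrome c oxidase subunit, then Btnl2 (0.16) and Smim24 (0.16), with Btnl1 at rank 9. Btnl4 was nearest to Gpr160 (0.066), an orphan receptor, Kcnk5 (0.072), a potassium channel, and Retsat (0.081), a retinol saturase. Of the cluster, the pseudogene Btnl5-ps stood at rank 128 (0.20) for Btnl4. Btnl6 was only at rank 2152, Btnl2 at rank 2170 and Btnl1 at rank 2733. Ranks were not symmetric: for Btnl1, Btnl4 stood at rank 426.

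Of the other butyrophilin family genes, 1 of 18 in the table reached 1 FPKM in any library. This was Btnl5-ps, a transcribed pseudogene between Btnl4 and Btnl6, at 21.8 and 31.6 FPKM in non-irradiated CD24+ cells, 29.7, 27.3 and 22.4 in irradiated CD24+ cells and 131, 126 and 121 in irradiated CD24- cells. It was the most abundant of the cluster in every CD24+ library and ranked below Btnl1 and Btnl6 in the means of CD24- cells. It rose between the irradiated gates by 2.22 ± 0.22 (SE) on the log2 scale (limma adjusted p = 1.56e-05, with 48.6% of all genes called higher) and differed by 0.0015 ± 0.25 (SE) between irradiated and non-irradiated CD24+ cells (limma adjusted p = 0.997). With Btnl4, whose transcripts share 10.1% of the 50-base stretches of Btnl5-ps, it had the smaller gate differences of the cluster. Btnl9, Btnl10, Mog and most Skint genes were among 12 family genes listed at 0 in every library. Of the genes in and beside the cluster, H2-Eb1, an MHC class II gene, overlapped between the gates: it stood at 11.8, 3.04 and 1.98 FPKM in irradiated CD24+ and 12.4, 2.35 and 1.36 in CD24- cells, and BC051142, between Btnl1 and Btnl4, did not exceed 0.242 in any library. These genes were chosen after their values were seen.

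Transcripts of lymphocytes, whose CD45+ cells the sort removed, were mostly near 0. Of 29 intraepithelial lymphocyte markers in the table, 22 were under 1 FPKM in every library, and Klre1 and Prf1, a natural killer receptor and the perforin gene, were at 0 throughout. Cd3e, a subunit of the T cell receptor complex, reached at most 0.362 FPKM, Cd3g at most 0.688, Cd8a at most 0.414, Itgae, the integrin that binds E-cadherin, at most 0.310, and Ptprc, the CD45 gene, at most 0.539. The summed FPKM of the 29 genes was 14.7 and 18.8 in non-irradiated CD24+, 11.5 to 20.0 in irradiated CD24+ and 8.19 to 27.5 in CD24- libraries, which overlap. Cd244 alone gave 4.62 to 7.28 FPKM in CD24+ libraries. As a share of all FPKM, whose sum was lower in CD24- libraries, the gates did not overlap (0.000852% to 0.00140% in CD24+, 0.00152% to 0.00472% in CD24-). Mean FPKM in irradiated CD24+ and CD24- cells was 0.0230 and 0.208 for Cd3e and 0.0865 and 0.350 for Cd3g. It was 0.0533 and 0.197 for Cd8a and 0.0583 and 0.196 for Itgae. Ptprc went the other way (0.109 and 0.0836). Of the 6 markers tested, 1 rose and 1 fell between the irradiated gates, where 48.6% of all tested genes rose and 7.27% fell. With the replicate block 4 rose and 2 fell. Gpr55, a lipid receptor gene, rose by 0.62 ± 0.23 (SE; limma adjusted p = 0.0370), a call lost with median-of-ratios scaling (adjusted p = 0.409), with no filter (0.0938), and without irradiated CD24+ replicate 1 (0.0769) or 3 (0.126) or CD24- replicate 1 (0.111) or 2 (0.139). Cd244, a receptor gene of killer lymphocytes, fell by 2.35 ± 0.21 (SE) from 5.58 ± 1.34 to 0.292 ± 0.282 FPKM (SD, n = 3 each; limma adjusted p = 9.52e-06).

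Epithelial genes that attract, hold or feed intraepithelial lymphocytes were mostly higher in CD24- cells. Of 22 such genes 15 were tested, and 14 rose and 0 fell between the irradiated gates, where 48.6% of all genes rose. Their median log2 difference was 1.59, against 0.51 over all tested genes. Il15, the cytokine that keeps these lymphocytes alive, stood at 1.17 ± 0.126 FPKM (SD, n = 3) in irradiated CD24+ and 8.52 ± 2.05 (SD, n = 3) in CD24- cells, a log2 difference of 2.11 ± 0.21 (SE; limma adjusted p = 1.74e-05). Its presenting receptor gene Il15ra rose by 1.23 ± 0.20 (SE). Ccl25, the gut-homing chemokine, went from 41.0 ± 14.2 to 367 ± 79.0 FPKM, and H2-T3, a class I-like molecule that binds the CD8 of these lymphocytes, from 2.58 ± 1.39 to 35.3 ± 8.56. Il18, an epithelial cytokine, rose by 4.10 ± 0.47 (SE) and Aldh1a1, a retinoic acid synthesis gene, by 4.11 ± 0.44. Cdh1, which encodes E-cadherin, rose less, by 1.08 ± 0.25, close to the epithelial sort marker Epcam (1.37 ± 0.28). In irradiated against non-irradiated CD24+ cells limma called 0 of the 15, with 1 at an unadjusted p under 0.05, where 1424 of all 11190 genes were. Without non-irradiated replicate 2 it called 6 of the 15 higher, where it called 46.4% of all genes higher, so the list did not exceed the background.

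Transcription factors of intestinal epithelium, some of which are known to act on butyrophilin-like genes (Hnf4a, Hnf4g and Cdx2 among them), were compared in the same way. Between the irradiated gates 16 of 18 rose and 0 fell, where 48.6% of all tested genes rose and 7.27% fell. Their median log2 difference was 1.33, against 0.51 over all tested genes. Hnf4g stood at 13.7, 12.7 and 8.87 FPKM in irradiated CD24+ and 96.3, 146 and 94.8 in CD24- cells, a log2 difference of 3.14 ± 0.29 (SE; limma adjusted p = 1.10e-05). Its relative Hnf4a rose by 1.32 ± 0.27 (SE), from 85.7 ± 7.67 to 216 ± 31.3 FPKM (SD, n = 3 each), and Cdx2 by 1.26 ± 0.25. Larger differences were found for Creb3l3, a regulator of lipid metabolism (4.51 ± 0.45), and Maf (3.48 ± 0.24), a factor of mature enterocytes, and Isx, a repressor of vitamin A genes, rose by 2.38 ± 0.32. Cdx1 did not pass (0.41 ± 0.28, limma adjusted p = 0.233), and its difference was -0.14 with median-of-ratios scaling and 1.65 after rescaling each library to the same sum. In irradiated against non-irradiated CD24+ cells limma called 0 of 18, as it called 0% of all tested genes. At an unadjusted p under 0.05 there was 1 of the 18, and 1424 of all 11190 genes. Without non-irradiated replicate 2 it called 9 of 18 higher, a share near the 46.4% of all genes called higher in that fit.

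Of the enterocyte markers, 30 of 30 rose between the irradiated gates, where 48.6% of all tested genes rose. Their median log2 difference of 4.27 was the highest of the lists, against 0.51 over all tested genes. The fat-transport genes Apoa4 (5.03 ± 0.72, SE) and Apoa1 (4.94 ± 0.56), the retinol-binding Rbp2 (4.65 ± 0.52), Apoc3 (4.65 ± 0.57) and Fabp1, a fatty acid-binding protein gene (4.61 ± 0.56), exceeded the members, and Vil1 (2.64 ± 0.31) lay near Btnl4. Of the B7 family, to which butyrophilins are related, 2 of 7 genes in the table were tested. Icosl, the ligand of the T cell receptor ICOS, rose by 0.96 ± 0.27 (SE; limma adjusted p = 0.0102, but 0.107 with median-of-ratios scaling), from 1.85 ± 0.580 to 4.72 ± 2.09 FPKM, and Cd276, a checkpoint molecule, fell by 1.28 ± 0.18, from 4.08 ± 0.476 to 1.08 ± 0.130 FPKM (limma adjusted p = 0.000130).

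**Figure D4:**
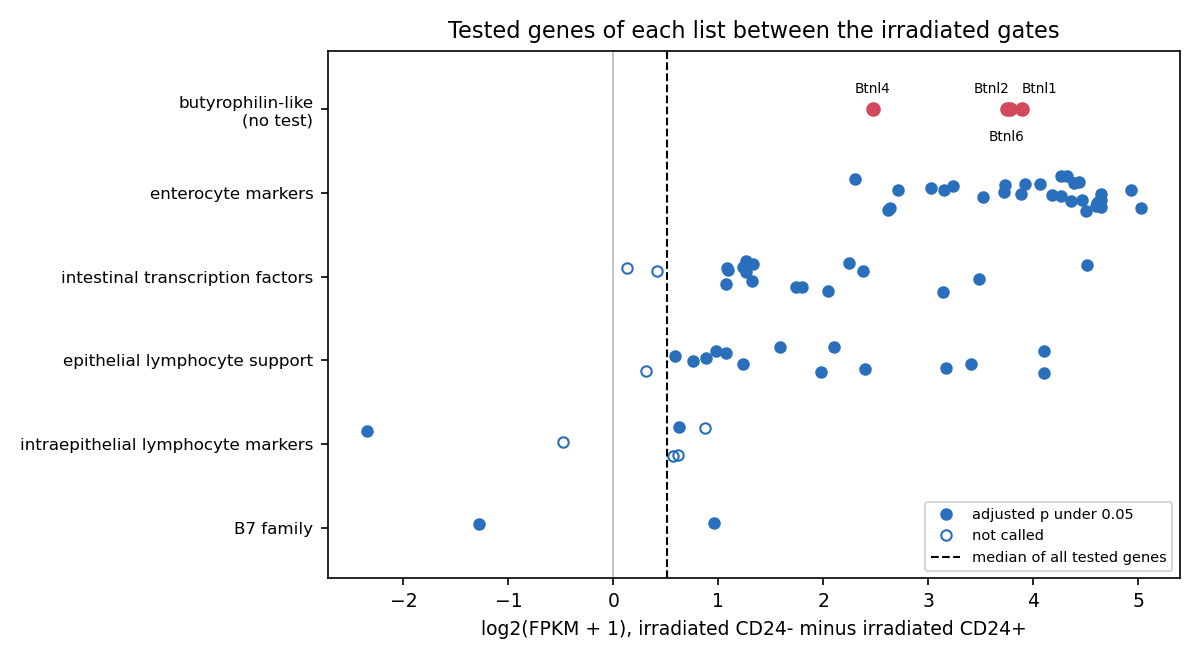
Difference of log2(FPKM + 1) between irradiated CD24- and irradiated CD24+ cells for each tested gene of 5 lists (filled, limma adjusted p under 0.05; open, not called) and for the 4 butyrophilin-like genes (red, no test), with the median of all tested genes as a dashed line at 0.51. Btnl1, Btnl2 and Btnl6 lie among the enterocyte markers, and Btnl4 lies at their lower edge.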

How the data were processed

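The authors deposited a table of FPKM values per gene and library, and the column names give the unit. Reads were processed with StringTie 1.3.4, TopHat2 2.1.0 and build mm9, per the submitters' processing notes. The annotation is not given in the sources used here. Per the labels' protocols libraries were made with TruSeq RNA v2, which keeps no strand, so reads of overlapping antisense genes are not separated. Reads that match several paralogs can be divided among them. Sequencing depth was not derived from the FPKM, so no counting interval is given, and FPKM sums ranged from 540467 to 1638347.

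The table held 24015 rows, and 2 repeated symbols were summed. Genes with at least 1 FPKM in at least 2 libraries (11190) were tested on log2(FPKM + 1), which understates folds of low genes. A single limma 3.58.1 fit (R 4.3.3, eBayes with trend) took all 8 libraries, with Benjamini-Hochberg adjustment over all tested genes. SE is limma's moderated standard error. The fit was also run on simulated data, drawn round a single mean per gene with set changes added to some genes. These data lacked the Paneth share that differs between the gates, and the outcome is not reported here. Figures used matplotlib 3.10.9.

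The 4 members and the 7 gene lists (170 entries, 12 not in the table) were chosen with earlier results of these data known. Named genes followed a rule: the members, family genes of at least 1 FPKM, up to 4 called genes of largest difference in each list, 16 fixed genes and the 3 nearest profiles for each member. The Paneth marker list served to check the gates: 33 of its 34 measured genes fell between the irradiated gates, where 7.27% of all tested genes fell.

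In the irradiated groups, the deviations of replicates 1, 2 and 3 from their group means correlated between the gates at r = 0.366, 0.231 and 0.402 (across genes, so not over independent units). No label states what the number marks. Each correlation was above 0.1, so the numbers were taken to pair these libraries, and a replicate block was run as an alternative. The main fit left this pairing out, and its SE and p-values are given wherever no alternative is named. The block covered all 8 libraries, so it also tied non-irradiated libraries to irradiated ones by number. For non-irradiated replicates 1 and 2 the correlation with the irradiated CD24+ library of the same number was 0.232 and -0.0499. Its results for irradiated against non-irradiated cells therefore rest on a pairing that was not established. Alternatives were another pseudocount, other filters, 3 scalings, fitting only the groups compared, the block, and leaving out each library.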

Additional observations from a re-analysis of the deposited data

How the results depend on the processing

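Between the irradiated gates the members were higher in CD24- cells under every alternative run. They were chosen for this difference, so its direction is a description and not a test. The log2 differences ranged, leaving out each library, from 3.78 to 4.02 for Btnl1, 3.68 to 3.86 for Btnl2, 2.37 to 2.54 for Btnl4 and 3.55 to 3.91 for Btnl6. They moved by more than the replicate spread after rescaling to a sum of 1000000 (5.11, 4.90, 3.67 and 4.96 in that order), with median-of-ratios scaling (3.33, 3.24, 1.93 and 3.19) and, for Btnl2, with a pseudocount of 0.1 (4.14). The count of genes called between the irradiated gates was 6252, and 10623 after rescaling to a sum of 1000000 (10386 higher, 237 lower). It was 6388 with median-of-ratios scaling (3589 higher, 2799 lower), where the median of all genes was 0.027, and 5064 to 7055 leaving out each library.

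In irradiated against non-irradiated CD24+ cells the members had no stable direction. With median-of-ratios scaling the differences were -0.26 (Btnl1), -0.21 (Btnl2), -0.21 (Btnl4) and -0.33 (Btnl6). Leaving out each library gave -0.63 to 0.93, -0.70 to 0.86, -0.23 to 0.63 and -0.78 to 0.93. The signs of Btnl2 (-0.0045) and Btnl6 (-0.086) also turned without irradiated CD24+ replicate 1. The count of genes called there was 0, and 1 with no filter, 5 with median-of-ratios scaling, 17 with only the 2 groups compared, 92 with the replicate block, and 0 to 5185 leaving out each library. The replicate block changed no call of a member (limma adjusted p of 0.503 to 0.846), and between the irradiated gates it gave 6469 calls. A fit that leaves 1 non-irradiated library assumes that it varies like the other groups. The cause of these shifts was not tested. Named genes outside the 4 members were recomputed only between the irradiated gates, where Cdx1 alone changed sign, to -0.14 with median-of-ratios scaling. Across alternatives 19 of 224 list counts moved by more than 1.5 times. Between the gates these were counts of the B7 and lymphocyte lists. In the CD24+ comparison the largest was 11 of 30 enterocyte markers without non-irradiated replicate 2, below the 46.4% of all genes called higher in that fit.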
